A study of Rattus norvegicus with 24 samples.

Results

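Gad1 (ENSRNOG00000000007), Gad2 (ENSRNOG00000018200) and Slc32a1 (ENSRNOG00000015393) are the genes for the synthesis of the inhibitory transmitter GABA and for its loading into synaptic vesicles, 3 of the 32883 genes in the count table. They were named in advance, and their naming was chosen by readouts of these same libraries, namely the differences of RS3 from C, of RS7 from C and of RS7 from AS. All 3 passed the filter on low counts, as did 16202 genes in all. The libraries came from the rostral posterior hypothalamic (rPH) region of adult male Sprague-Dawley rats, a region studied for the decline of hormonal stress responses when the same stressor is repeated. Every rat was placed in a sound chamber on 7 consecutive days, and the groups received no loud noise (C, control), 1 exposure to loud white noise (AS, acute stress), 3 exposures (RS3) or 7 exposures (RS7), with the last session on the same day in all groups and the brain taken 24 h later. Each group held 6 rats, and each library came from the tissue block of 1 rat. The study analysed 20 of the 24 rats, 5 per group. The rats it left out (rat 20 of C, rat 18 of AS, rat 8 of RS3 and rat 1 of RS7) are therefore described apart.

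GABA is made from glutamate by glutamate decarboxylase, which exists in a pair of forms. The form encoded by Gad1 supplies GABA throughout the cell, whereas the form encoded by Gad2 is concentrated at axon terminals and is largely regulated by its cofactor. The vesicular transporter encoded by Slc32a1 then moves GABA, and also glycine, into synaptic vesicles. The 3 transcripts together mark inhibitory neurons. In the hypothalamus and the adjacent ventral thalamus such neurons are abundant, whereas the dorsal thalamus of the rat, which lies next to the dissected block, has few of them and consists mainly of glutamatergic neurons. In RNA from a tissue block, fewer cells of a type and less RNA per cell cannot be told apart.

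The sequence just before the start of each gene is shown because the 3 transcripts moved together from rat to rat, as described below. The bases come from RefSeq promoter windows on the GRCr8 assembly, which held all 3 genes, and are written on the plus strand, 5′ to 3′. Capitals mark matches, on either strand, to the TATA box core TATAAA, the GC box GGGCGG, the homeodomain core TAATTA, the glucocorticoid receptor half-site AGAACA and the cyclic AMP response element half-site TGACG. Only bases before the annotated gene start are printed, which are 58 bases for Gad1 (chr3:75777202-75777259), 250 for Gad2 (chr17:89671468-89671717) and 250 for Slc32a1 (chr3:167686995-167687244).
Gad1: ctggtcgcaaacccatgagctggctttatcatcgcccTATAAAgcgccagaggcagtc
Gad2: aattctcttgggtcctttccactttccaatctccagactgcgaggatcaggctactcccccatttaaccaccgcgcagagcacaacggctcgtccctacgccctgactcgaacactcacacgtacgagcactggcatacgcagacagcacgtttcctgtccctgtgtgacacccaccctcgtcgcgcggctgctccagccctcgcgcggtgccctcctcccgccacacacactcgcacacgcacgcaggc
Slc32a1: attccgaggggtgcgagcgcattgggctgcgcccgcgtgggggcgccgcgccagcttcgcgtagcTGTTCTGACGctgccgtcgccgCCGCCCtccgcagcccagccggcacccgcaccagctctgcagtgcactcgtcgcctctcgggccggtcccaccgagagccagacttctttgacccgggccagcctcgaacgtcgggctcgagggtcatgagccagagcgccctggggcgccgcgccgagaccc

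The Gad1 stretch held TATAAA, which was present in the 250-base windows of 12.9% of all 33469 promoters. The Slc32a1 stretch held the reverse complement of AGAACA, overlapping by 1 base with TGACG, and also the reverse complement of GGGCGG. The windows of 17.5%, 18.2% and 30.5% of promoters held these letters. The Gad2 stretch held none of the 5 motifs, and TAATTA was in none of the 3 windows and in 4.86% of all promoters. A match here is a description of letters. The content of G and C was 68.4% for Gad1, 62% for Gad2 and 73.6% for Slc32a1, against a median of 51.2% over all promoters. In the same order, the windows held more G and C than 89.7%, 79% and 95.5% of all promoters. For Gad1 the 250-base window reached past the annotated gene start, and its only other match, to the GC box, lay there.

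The 20 retained libraries held between 8087697 and 16947298 reads counted on genes. Each rat gave 1674 to 4014 counts for Gad1, 2775 to 6845 for Gad2 and 581 to 1437 for Slc32a1, so that counting error was at most 2.44%, 1.90% and 4.15% of a value. The spread between rats of 1 group was several times larger. Levels are given as CPM, counts per 1000000 after TMM scaling of the library sizes, and they are not compared between genes, since gene lengths were not used here.

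Gad1 was at like levels in the C and AS groups and lower after repeated noise. In C rats 19, 21, 22, 23 and 24 it stood at 283, 223, 268, 188 and 323 CPM. In AS rats 13 to 17 it stood at 245, 327, 266, 217 and 297 CPM. Rat 23 was the lowest C rat, below every AS rat. In RS3 rats 7, 9, 10, 11 and 12 the level was 204, 159, 196, 213 and 211 CPM, and in RS7 rats 2 to 6 it was 192, 146, 166, 166 and 158 CPM. The group means were 257 ± 52.6 (C), 270 ± 43.3 (AS), 197 ± 21.7 (RS3) and 166 ± 16.7 CPM (RS7; SD, n = 5 each). The order was thus AS, C, RS3 and RS7, in which AS and C differed by less than 1 SD, and RS3 and RS7 by more than 1 SD with ranges that overlapped. All AS rats lay above all RS3 and all RS7 rats, whereas C rat 23 lay within the RS3 range and below the highest RS7 rat.

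Gad2 showed the same division with a smaller step from RS3 to RS7. The C rats, in the same order, had 528, 493, 494, 323 and 571 CPM, and the AS rats had 418, 535, 466, 382 and 513 CPM. Again rat 23 was the low C rat, more than 100 CPM below the rest of its group. The RS3 rats had 300, 262, 363, 357 and 378 CPM and the RS7 rats 363, 271, 363, 293 and 291 CPM, 2 groups of nearly the same range. From the highest mean to the lowest the order was C, AS, RS3 and RS7, and neither C and AS nor RS3 and RS7 differed by more than their SD, which lay between 43.5 and 94.2 CPM. All AS rats lay above all RS3 and RS7 rats, as for Gad1.

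Slc32a1 had the lowest counts of the 3, and of the 3 it differed least from C after 3 and 7 exposures. The C rats had 109, 96.7, 86.8, 75.3 and 102 CPM, and the AS rats 95.7, 115, 84.2, 87.5 and 118 CPM. The RS3 rats had 62.8, 68.4, 83.0, 96.0 and 88.4 CPM, and the RS7 rats 84.4, 61.0, 76.6, 60.9 and 66.6 CPM. Neighbouring groups overlapped. The means were 100 ± 15.5 (AS), 93.9 ± 13.1 (C), 79.7 ± 13.8 (RS3) and 69.9 ± 10.3 CPM (RS7; SD, n = 5 each). AS and C, and likewise RS3 and RS7, differed by less than 1 SD. RS7 rat 2, the highest of its group at 84.4 CPM, was level with AS rat 15, the lowest of its own at 84.2 CPM, which is the only contact between AS and RS7.

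**Figure D1:**
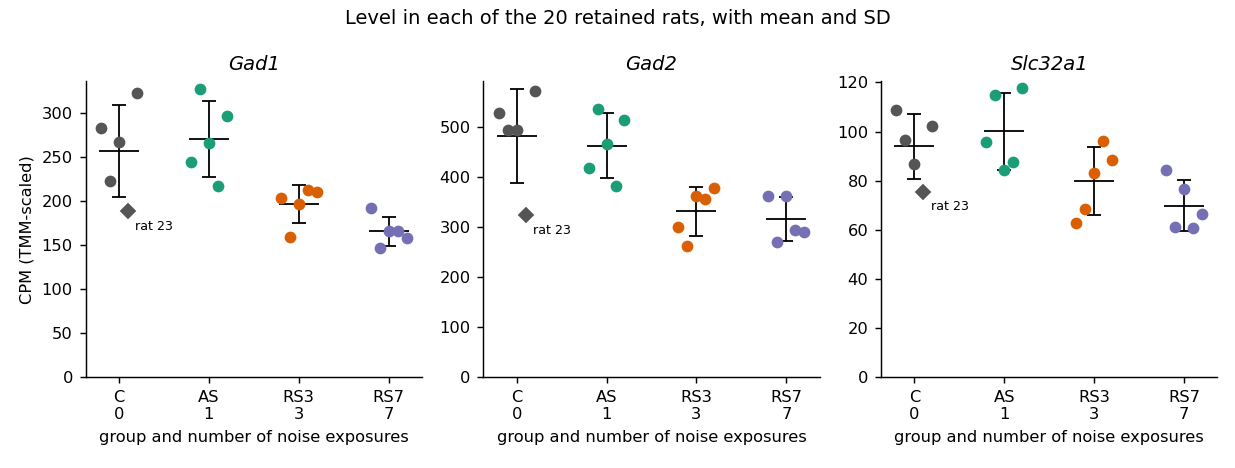
Level of Gad1, Gad2 and Slc32a1 (vertical axes, TMM-scaled CPM, from 0) in each of the 20 retained rats by group and number of noise exposures; points are rats, horizontal bars group means and error bars SD (n = 5). The RS3 and RS7 rats lie in the lower part of each panel, and C rat 23, drawn as a diamond at 188, 323 and 75.3 CPM, lies among them.

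After a single exposure none of the 3 genes differed detectably from the C group. The question of this comparison is what 1 noise session leaves behind a day later. The log2 fold changes, the group with more exposures minus that with fewer, were 0.07 (SE 0.131) for Gad1, -0.06 (SE 0.141) for Gad2 and 0.09 (SE 0.132) for Slc32a1. The adjusted p values of edgeR's quasi-likelihood test, Benjamini-Hochberg over 16202 genes, were 0.880, 0.922 and 0.841, so 0 of 3 were called, and 0 had an unadjusted p under 0.05. Nor did DESeq2 or limma-voom call any of them. Over all genes edgeR called 0% in this comparison, while 1625 genes had an unadjusted p under 0.05.

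Between 1 and 3 exposures all 3 genes had lower values. The log2 fold change from AS to RS3 was -0.46 (SE 0.131) for Gad1, -0.48 (SE 0.142) for Gad2 and -0.33 (SE 0.132) for Slc32a1, against a median of 0.00 over all genes. The edgeR test with Benjamini-Hochberg adjustment called none of them, with adjusted p of 0.789, 0.875 and 1.00, although all 3 had an unadjusted p under 0.05 (0.00238, 0.00333 and 0.0234 by edgeR). It called 0% of all genes here, and 747 genes had an unadjusted p under 0.05. Neither DESeq2 nor limma-voom called any of the 3. For Gad1 and Gad2 every RS3 rat lay below every AS rat, by a margin of a few CPM, which held for 0.506% of all genes in that direction. This comparison was not used to name the genes, but its rats are those of comparisons that were.

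From 3 to 7 exposures none of the 3 genes passed the test, and the fold change of Gad2 was smaller than its error. The log2 fold change from RS3 to RS7 was -0.25 (SE 0.132) for Gad1, -0.07 (SE 0.142) for Gad2 and -0.19 (SE 0.133) for Slc32a1. The adjusted p values of the edgeR test were 0.674, 0.922 and 0.740. None of the 3 was called by edgeR, DESeq2 or limma-voom, and 0 had an unadjusted p under 0.05. Over all genes 0% were called, with 1218 at an unadjusted p under 0.05.

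The comparisons that led to the naming of the genes are given as values without p values for the members, and the calls made there are counted further on as a description only. From C to RS3 the log2 fold changes were -0.39 (SE 0.131) for Gad1, -0.54 (SE 0.142) for Gad2 and -0.23 (SE 0.133) for Slc32a1. From C to RS7 they were -0.63 (SE 0.132), -0.61 (SE 0.142) and -0.42 (SE 0.134) in the same order, equal to 0.645, 0.657 and 0.745 of the C level. From AS to RS7 they were -0.71 (SE 0.132), -0.55 (SE 0.142) and -0.52 (SE 0.133), equal to 0.613, 0.683 and 0.699 of the AS level. All 6 comparisons share groups, so C versus RS7 and AS versus RS7 are not separate evidence. In every comparison with a group of 3 or 7 exposures as the second member, the values of all 3 genes were negative, while the median over all genes lay between -0.01 and 0.00.

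**Figure D2:**
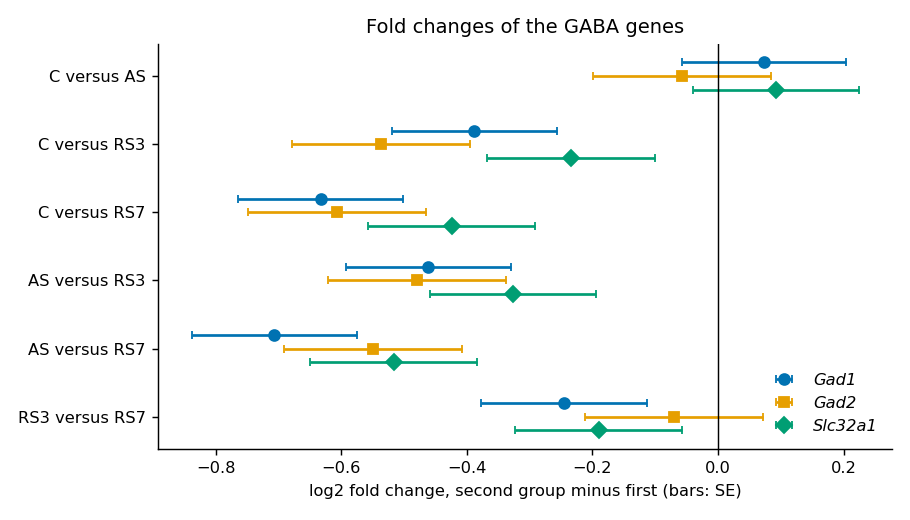
Log2 fold changes of Gad1, Gad2 and Slc32a1 (horizontal axis, second group minus first) in the 6 comparisons of the groups (vertical axis); points are edgeR estimates over 5 rats a group and bars are SE. The C versus AS values lie within 0.10 of 0, those from C or AS to RS7 between -0.71 and -0.42, and the RS3 versus RS7 values between -0.25 and -0.07.

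At the adjusted p of 0.05, edgeR called 0 of the 3 genes lower in C versus RS3, where 0% of all genes were called lower (DESeq2 called 1 of the 3 and limma-voom 0, beside 0.158% and 0% of the genes each tested). It called 0 in C versus RS7, where 0.037% of all genes were called lower, with DESeq2 calling 3 beside 0.87% of its genes and limma-voom 1 beside 0.235%. In AS versus RS7 it called 1, Gad1, where 0.481% of all genes were called lower, and both other tools called 3, beside 1.13% (DESeq2) and 1.8% (limma-voom) of their genes. The C rats did not separate from the RS3 or RS7 rats for any of the 3 genes, although for Gad1 and Gad2 only rat 23 lay within their ranges, whereas 1.07% and 1.53% of all genes separated downwards. Between AS and RS7, Gad1 and Gad2 separated fully, as did 1.69% of all genes in that direction. These counts changed when single rats were left out, and so did the share of all genes called lower. Without C rat 23 the counts were 1 (C versus RS3), 2 (C versus RS7) and 3 (AS versus RS7), beside 0.049%, 0.637% and 0.601% of all genes. In C versus RS7 the count was 2 without RS7 rat 4, where 1.7% of all genes were called lower, and 1 without RS3 rat 9 (0.049%) or RS3 rat 11 (0.117%), which enter through the shared spread. In AS versus RS7 it was 0 without AS rat 17 (0.0307% of all genes), 2 without AS rat 15 (0.735%), RS3 rat 7 (0.54%) or RS3 rat 11 (0.564%), and 3 without RS3 rat 9 (0.662%) or RS7 rat 2 (0.882%).

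Within groups, rats with more Gad1 also had more Gad2 and more Slc32a1. This was examined on the deviation of each rat's log2 CPM from its group mean, which the group differences that named the genes do not enter. Over the 20 rats Pearson's r was 0.881 for Gad1 and Gad2, 0.826 for Gad2 and Slc32a1 and 0.688 for Gad1 and Slc32a1. Spearman's rho was 0.880, 0.785 and 0.699. In a two-sided permutation test that exchanged rats within groups (100000 draws), p was 1e-05, the smallest these draws can give, 0.00011 and 0.00157, and adjusted over the 3 pairs it was 3e-05, 0.000165 and 0.00157. For rho the adjusted permutation p was 6e-05, 0.00045 and 0.0012.

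The relation did not rest on the most extreme rats. C rat 23 was farthest from the centre in all 3 pairs, with C rat 24 or RS3 rat 9 next. Without the 2 farthest rats r was 0.831 (permutation p = 6e-05) for Gad1 and Gad2, 0.818 (0.0009) for Gad2 and Slc32a1 and 0.642 (0.0108) for Gad1 and Slc32a1. The pair of decarboxylase genes thus kept the closest relation, and the pair of Gad1 with the transporter the loosest. Whether these r values differ from each other was not tested.

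**Figure D3:**
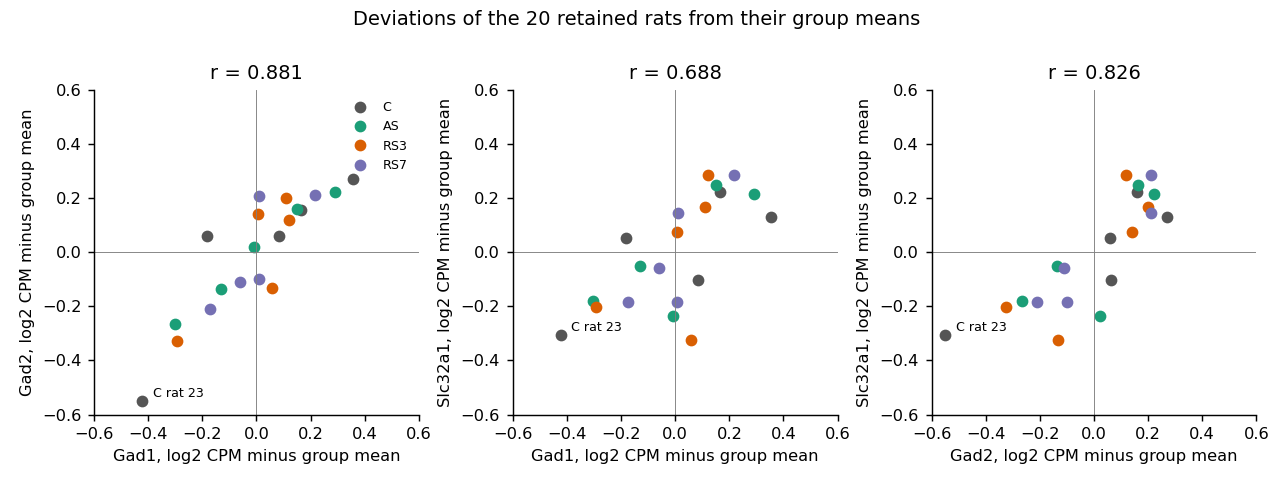
Deviation of log2 CPM from the group mean for each pair of genes (both axes, log2 units) in the 20 retained rats, coloured by group, with Pearson's r above each panel. Points of all 4 groups follow a rising line, and C rat 23 lies at the lower left of each panel.

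In each group taken alone r was positive, given here over all 6 rats without a test. For Gad1 and Gad2, r was 0.884 in C, 0.982 in AS, 0.920 in RS3 and 0.906 in RS7. For Gad2 and Slc32a1 it was 0.893, 0.505, 0.795 and 0.892, and for Gad1 and Slc32a1 0.789, 0.411, 0.675 and 0.850. The AS group had the lowest values in both pairs with the transporter. Over its 5 retained rats those values were 0.760 and 0.788, so the low figures came with rat 18.

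Because a ratio of 2 counts from 1 library does not depend on library scaling, the balance between the genes was also followed in each rat. The ratio of Gad1 to Gad2 counts ran from 0.451 to 0.679 over the 20 rats, that of Gad1 to Slc32a1 from 2.17 to 3.24 and that of Gad2 to Slc32a1 from 3.72 to 5.69. The within-group SD of the log2 ratio was 0.11, 0.18 and 0.14. These were smaller than the within-group SD of the log2 levels themselves, which was 0.22 for Gad1, 0.24 for Gad2 and 0.22 for Slc32a1. The smaller SD of the ratios restates the within-group relations above and is not separate evidence for them. Counting error accounted for 0.03 to 0.07 of a log2 ratio.

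The mean log2 ratio of Gad1 to Gad2 was -0.91 ± 0.14 in C, -0.78 ± 0.04 in AS, -0.75 ± 0.13 in RS3 and -0.93 ± 0.12 in RS7 (SD, n = 5 each). The AS rats were close together, whereas 1 C rat and 1 RS7 rat lay far below their groups, at -1.15 and -1.13. In two-sided exact permutation tests over rats, for which 5 against 5 allows no p below 0.00794, the differences between C and AS and between RS3 and RS7 each had p = 0.0476 and an adjusted p of 0.214 over 9 ratio tests. AS and RS3 differed by 0.03, with an exact adjusted p of 0.804. From AS to RS7, given without a test, the difference was -0.15.

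The ratio of either decarboxylase to the transporter had a lower mean in RS3 and RS7 than in C, and no tested difference passed. The mean log2 ratio of Gad1 to Slc32a1 was 1.44 ± 0.20 in C, 1.43 ± 0.15 in AS, 1.31 ± 0.22 in RS3 and 1.25 ± 0.12 in RS7 (SD, n = 5 each). For Gad2 to Slc32a1 it was 2.34 ± 0.17, 2.21 ± 0.15, 2.06 ± 0.15 and 2.18 ± 0.07. The 6 tested differences had exact permutation p, adjusted over the 9 tests, between 0.357 and 0.937. In the comparisons without a test, the widest gap was -0.28 for Gad2 to Slc32a1 from C to RS3.

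**Figure D4:**
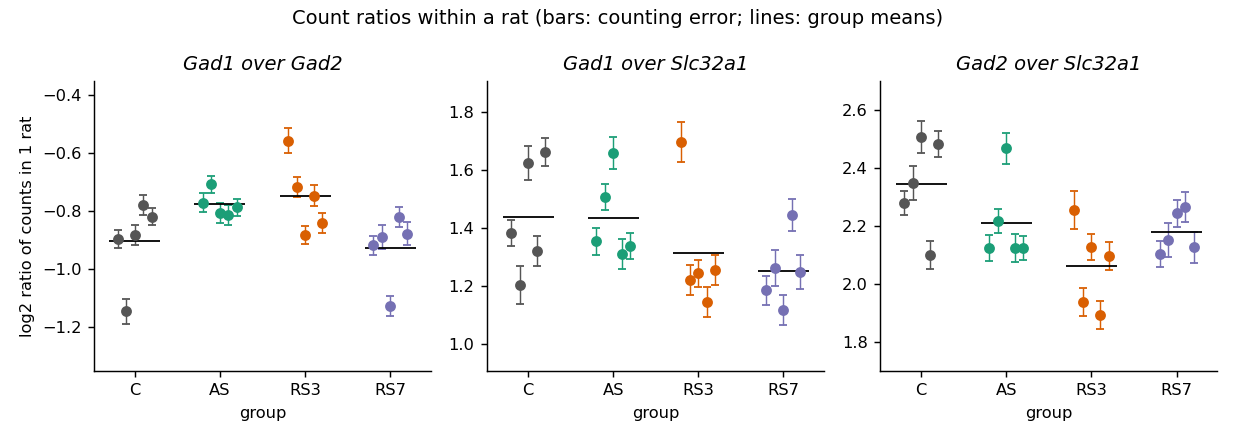
Log2 ratio of counts of 2 genes in the same rat (vertical axes, each spanning 1 log2 unit and not starting at 0) by group; points are the 20 retained rats, bars the counting error and lines the group means. The group means lie within 0.28 of each other in all 3 panels, and rats of different groups overlap.

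The 4 rats that the study left out for poor library quality (the fewest reads in 1 of them, and adapter sequence with a high GC content in the rest) took no part in the comparisons. Whether that quality moved the values below was not tested. Their values are on a CPM scale set over all 24 rats, with 95% Poisson intervals that cover counting error only. Scaling mattered, since their TMM factors were 0.893 for rat 20 of C, 0.551 for rat 18 of AS, 0.884 for rat 8 of RS3 and 0.734 for rat 1 of RS7, against 0.968 to 1.11 in the retained rats. AS rat 18 also had the fewest counts, 4744531. Gad1 stood at 269 (258 to 280) CPM in C rat 20, 256 (237 to 276) in AS rat 18, 244 (234 to 255) in RS3 rat 8 and 194 (185 to 202) in RS7 rat 1. The order of the groups was that of the retained rats apart from C and AS, but RS3 rat 8 and RS7 rat 1 each lay above all 5 retained rats of their group.

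Gad2 stood at 581 (565 to 597) CPM in C rat 20, 456 (430 to 482) in AS rat 18, 535 (519 to 550) in RS3 rat 8 and 429 (416 to 441) in RS7 rat 1. RS3 rat 8 was 0.78 log2 units above the mean of the retained RS3 rats and above every retained AS rat. RS7 rat 1 was 0.53 log2 units above the mean of the retained RS7 rats, whose highest value was 344 CPM. It lay within the range of the retained AS rats, 359 to 504 CPM. C rat 20 also lay above the retained rats of its group, and AS rat 18 lay within its own. Slc32a1 stood at 97.3 (91.0 to 104), 171 (156 to 188), 92.7 (86.3 to 99.4) and 78.0 (72.8 to 83.6) CPM in the same order of rats. On this scale AS rat 18 was far above its group for Slc32a1 alone. Per total count its Slc32a1 was 94.2 CPM, so this position depends on its TMM factor of 0.551. The ratio of Gad1 to Slc32a1 counts in AS rat 18 was 1.49 and that of Gad2 to Slc32a1 2.66, both outside the range of the 20 retained rats.

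RS7 rat 1 was the lowest of the 4 left-out rats for each gene on the TMM scale. Per total count, without TMM factors, it had 142, 315 and 57.3 CPM for Gad1, Gad2 and Slc32a1, and AS rat 18 had 141, 251 and 94.2. On that scale AS rat 18 was therefore the lowest for Gad1 and Gad2, and the order depends on the scaling.

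**Figure D5:**
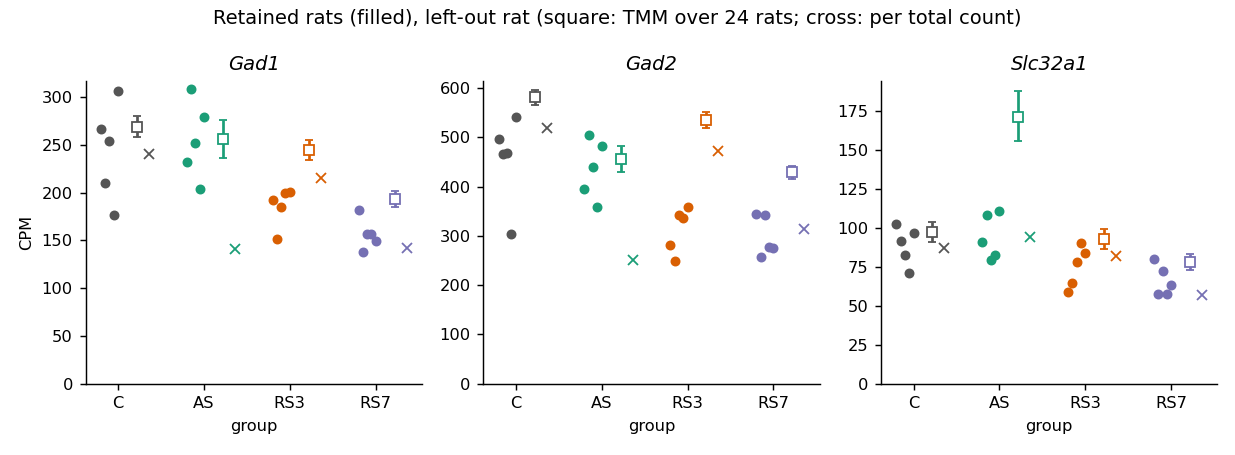
CPM of Gad1, Gad2 and Slc32a1 (vertical axes, from 0) by group, with the 5 retained rats filled (TMM over all 24 rats) and the left-out rat as a square with its 95% counting interval; the cross gives the same left-out rat per total count. The crosses of AS rat 18 and RS7 rat 1 lie well below their squares, 141 against 256 CPM and 142 against 194 CPM for Gad1.

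Among the other 16199 genes, few followed the 3 genes from rat to rat as closely as they followed each other. Likeness was measured as Pearson's r of within-group deviations over the 20 rats, which share library and depth, and is a description without a test. Gad2 ranked 2 among the genes most like Gad1, Gad1 ranked 2 among those most like Gad2, and Gad2 ranked 2 among those most like Slc32a1, each out of 16201. Slc32a1 ranked 6 for Gad2 and 42 for Gad1, and Gad1 ranked 63 for Slc32a1. The median r of all other genes with the mean deviation of the 3 was 0.00, with 5% of genes below -0.41 and 5% above 0.44, and 9 genes exceeded 0.8.

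The most similar genes with a symbol were Gucy1a1 (ENSRNOG00000012302, r = 0.896), a subunit of the nitric oxide receptor guanylate cyclase, and Ubash3b (ENSRNOG00000008187, 0.848), a protein phosphatase. They were followed by Islr2 (ENSRNOG00000050714, 0.821), a membrane protein of growing axons, the cation channel gene Trpc7 (ENSRNOG00000012727, 0.809) and Sim1 (ENSRNOG00000037600, 0.807), a transcription factor of hypothalamic neurosecretory neurons. The identifiers ENSRNOG00000003756 (0.824) and ENSRNOG00000018778 (0.821) ranked 3 and 4 and had no symbol in the sources used here. Gucy1a1 averaged 41.0 ± 7.09, 41.5 ± 4.53, 30.7 ± 3.03 and 28.3 ± 2.02 CPM in C, AS, RS3 and RS7 (SD, n = 5 each), and Sim1 11.7 ± 3.05, 10.8 ± 1.98, 7.99 ± 2.02 and 5.96 ± 1.78 CPM. Trpc7 and Sim1 rest on as few as 29 and 58 counts in a rat. Symbols were known only for 731 of the other genes, all taken from the study's list of genes that differed between groups, so the named genes come from a selected set. With all 24 rats 2 of these 5 were again among the 5 most similar.

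Among the genes with a symbol, those whose deviations ran most against those of the 3 were Epha8 (ENSRNOG00000013036, r = -0.744), an ephrin receptor, Secisbp2l (ENSRNOG00000008629, -0.740), related to a selenoprotein synthesis factor, and Kcna2 (ENSRNOG00000018285, -0.735), a voltage-gated potassium channel of axons. Epha8 averaged 9.47 ± 1.78, 9.98 ± 0.896, 13.8 ± 1.53 and 12.8 ± 1.67 CPM in C, AS, RS3 and RS7, and Kcna2 413 ± 38.3, 390 ± 39.1, 458 ± 36.5 and 486 ± 38.3 CPM (SD, n = 5 each).

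Of the genes around GABA signalling, those for supply, re-uptake and breakdown (10 genes) had no identifier in the sources used here, and 4 of 15 receptor genes had one. All 4 were subunits whose values were higher in RS7 than in C, with a median log2 fold change of 0.51. From AS to RS7 the median was 0.48, all 4 were higher and edgeR called 2 higher, where it called 1.19% of all genes higher, but these subunits were listed by the study for differing on these samples, so their direction is not independent evidence. Gabrb2, a beta subunit of the GABA-A receptor, averaged 93.5 ± 15.4, 95.2 ± 12.0, 118 ± 19.7 and 136 ± 16.3 CPM in C, AS, RS3 and RS7 (SD, n = 5 each). Gabrd, a subunit of receptors outside the synapse, averaged 42.3 ± 7.35, 48.8 ± 10.6, 61.0 ± 15.4 and 66.2 ± 15.7 CPM. Within groups the 4 receptor genes had r between -0.503 and 0.302 with the mean deviation of the 3 GABA genes.

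The listed markers of GABAergic neurons with an identifier had lower values in the groups where the 3 genes were lower. Of 12 transcription factor genes of hypothalamic and ventral thalamic GABAergic neurons, 4 had an identifier (Dlx5, Dlx6, Isl1 and Lhx5). Their summed level ran from 12.3 to 26.5 CPM in C, 15.4 to 27.7 in AS, 9.26 to 18.6 in RS3 and 6.80 to 13.1 in RS7. All 4 had lower values in RS7 than in C or AS. In either comparison edgeR called 0 of them, while it called 0.037% of all genes lower from C and 0.481% lower from AS. Each of the 4 had an unadjusted edgeR p under 0.05 in both. The share of all genes under that p is not given here for these comparisons, so nothing is read from this count. In C versus RS3 that share was 16.3%. These genes too come from the study's list of genes that differed on these samples. Their lower values and low p are therefore not independent evidence. Of 9 genes listed for peptides and calcium-binding proteins of such neurons, 3 had an identifier (Penk, Gal and Trh), again from the study's list. Those 3 summed to a median of 128, 103, 75.0 and 51.2 CPM in C, AS, RS3 and RS7. Of them edgeR called 0 in C versus RS7 and in AS versus RS7, beside the same shares of all genes called lower. Their lower values are not independent evidence either. Whether the cells that expressed them here were GABAergic was not tested. The summed deviations of the transcription factors and of the peptides had r of 0.764 (rho 0.666) and 0.701 (rho 0.677) with the mean deviation of the 3 GABA genes over the 20 rats, and 0.565 and 0.469 without C rat 23 and RS3 rat 9, the farthest rats.

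Markers of glutamatergic and dorsal thalamic neurons had higher values in RS7. In C versus RS7 edgeR called 0 of the 4 with an identifier, beside 24 of 16202 genes in either direction. All 4 had an unadjusted edgeR p under 0.05 there, a count without the share of all genes beside it, from which nothing is read. In AS versus RS7 edgeR called 1 of the 4 higher, where it called 1.19% of all genes higher. These genes, and the other markers below, were listed by the study for differing on these samples. Neither their direction nor these p values are independent evidence. The 4 of 9 with an identifier (Slc17a6, the vesicular glutamate transporter of the thalamus and hypothalamus, Lhx9, Rora and Synpo2) summed to 599 to 804 CPM in C, 631 to 892 in AS, 676 to 968 in RS3 and 876 to 1131 in RS7. Slc17a6 alone averaged 578 ± 65.1, 610 ± 86.2, 697 ± 77.3 and 753 ± 78.7 CPM in C, AS, RS3 and RS7 (SD, n = 5 each). Within groups r with the GABA genes was -0.408 for Slc17a6, -0.340 for Synpo2, -0.306 for Rora and -0.095 for Lhx9. The sum of the 4, most of it Slc17a6, had r of -0.411 (rho -0.400), and -0.258 without the 2 farthest rats. Neurofilament and other general neuronal genes (5 of 9) had higher values in RS7 as well, all 5 than in C and all 5 than in AS. Of the 5, edgeR called 0 in C versus RS7 and 2 higher in AS versus RS7. They summed to a median of 3716, 3524, 3758 and 4177 CPM, with r of -0.569 (rho -0.564) within groups and -0.480 without the same 2 rats. With all 24 rats this r was 0.355. Astrocyte genes (3 of 6) summed to a median of 2000, 1889, 1793 and 1908 CPM, with r of 0.107 (rho 0.198), which was 0.506 with all 24 rats. The sum joined unlike genes, with r of 0.554 for Slc1a3, -0.210 for Slc1a2 and -0.009 for Aqp4. From C to RS7, 1 was higher and 2 were lower, and edgeR called 0. From AS to RS7, 2 were higher and 1 was lower, and edgeR called 1 higher. None of the markers of oligodendrocytes, microglia and endothelium had an identifier. These r values were computed after the data had been examined and are descriptions. Sim1, a hypothalamic gene, was at 3.66 CPM or more in every rat. No marker with an identifier was at 0, and the part that the mixture of cell types has in the levels of the 3 GABA genes was not tested.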

How the data were processed

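The authors sequenced polyA RNA, trimmed the read pairs (Trimmomatic 0.36), mapped them to the rn6 genome with HISAT2 2.0.5 and counted them per Ensembl gene with featureCounts, and the deposited values are unnormalized counts for 32883 genes in 24 rats. How strand and multiply mapped reads were handled was not given in the sources used here, so overlapping genes may share reads. The 20 retained rats were found by recomputing the mean normalized count of 808 genes in the study's supplementary table for 1296 sets of rats. A single set matched all 808 (relative tolerance 1e-06), and the next best matched 1. Symbols came from the same table, where RefSeq knew the symbol and 1 identifier carried it (734 genes). Identifiers missing there were not analysed, and some items of the gene lists are not reported here.

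Counts were analysed in edgeR 4.0.16 (R 4.3.3) with TMM scaling, filterByExpr (minimum count 10) and robust quasi-likelihood tests, with all 4 groups in 1 fit and Benjamini-Hochberg adjustment within each comparison at 0.05. Log2 CPM used a prior count of 2. Rats were separate animals, and the edgeR p values set a difference between groups against the spread between rats. Relations and ratios were tested by permutation (scipy 1.17.1, numpy 2.4.6). The genes described, the gene lists and the tests were chosen with earlier results of these data known. Named genes are the 3 GABA genes, the 5 most and 3 least similar genes with a symbol by within-group r, and at most 2 identifiers without one. The alternatives were DESeq2 1.42.0, its size factors, limma-voom 3.58.1 with quality weights, all 24 rats, 2 groups per fit, no low-count filter, libraries thinned to 8087697 counts, a prior count of 0.5, and leaving out C rats 21 and 22 or each rat in turn. The fits and the similarity ranking were tested on simulated data.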

Additional observations from a re-analysis of the deposited data

Results flagged for a closer look

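Dixon's criterion was applied to 36 sets, namely the CPM of each of the 3 genes and each log2 count ratio in the 5 retained rats of each group, and the CPM in all 6 rats of each group. It marked 3 of them, and chance marks about 1 in 20. RS3 rat 7 had a log2 ratio of Gad1 to Slc32a1 of 1.70, far above the other RS3 rats. AS rat 15 had a log2 ratio of Gad2 to Slc32a1 of 2.47, above the other AS rats. AS rat 18, which the study left out, had 171 CPM of Slc32a1 on the scale set over all 24 rats, above the 5 retained AS rats, whose highest value was 111 CPM. Per total count, without its TMM factor, AS rat 18 had 94.2 CPM. RS3 rat 7 and AS rat 15 had the lowest Slc32a1 level of their group, at 62.8 and 84.2 CPM. AS rat 18 had the highest of its group on the scale set over all 24 rats.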

How the results depend on the processing

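All log2 fold changes of the 3 genes kept their direction under all alternatives apart from C versus AS, where leaving out 1 rat gave -0.022 to 0.17 for Gad1 and -0.17 to 0.012 for Gad2. The number of the 3 genes called was less stable. In C versus RS3 it was 1 with DESeq2 (beside 0.158% of all genes called lower) and 0 to 1 when 1 rat was left out (0% to 0.049%). In C versus RS7 it was 3 with DESeq2 (0.87%), 1 with all 24 rats (0.0619%), 1 with limma-voom (0.235%) and 0 to 2 without 1 rat (0% to 1.7%). In AS versus RS7 it was 3 with DESeq2 (1.13%), limma-voom (1.8%) or only the 2 groups in the fit (0.827%), 2 with all 24 rats (0.136%) and 0 to 3 without 1 rat (0.0307% to 0.882%). The 3 relations within groups passed the permutation test under every alternative, with r from 0.83 to 0.92 for Gad1 and Gad2, 0.59 to 0.79 for Gad1 and Slc32a1 and 0.67 to 0.87 for Gad2 and Slc32a1. Small ratio differences changed sign. With all 24 rats AS versus RS3 was -0.026 for Gad1 to Gad2, 0.035 for Gad1 to Slc32a1 and 0.061 for Gad2 to Slc32a1, and with thinned libraries it was -0.0070 for Gad1 to Gad2, and C versus AS was 0.0050 for Gad1 to Slc32a1. Leaving out 1 rat gave -0.020 to 0.062 for Gad1 to Gad2 (AS versus RS3), -0.063 to 0.052 (C versus AS) and -0.11 to 0.035 (RS3 versus RS7) for Gad1 to Slc32a1. The r of the 3 genes with general neuronal genes turned to 0.355 with all 24 rats. The cause of these changes was not tested. No paired analysis was possible because the groups share no rat numbers. The 5 rats of each group, rather than depth, limit these values, since counting error was at most 4.15%.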
